A study of Mus musculus with 8 samples.

Results

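Chemokines and their receptors were examined as a gene family in ATAC-seq data of mouse spleen. Members were the protein-coding genes of the mm10 annotation whose symbols read Ccl, Ccr, Cxcl or Cxcr followed by a digit, with Xcl1, Xcr1, Cx3cl1, Cx3cr1 and Ackr1 to Ackr4 added. This rule found 60 of 21827 protein-coding genes, 37 of them ligands and 23 receptors. By textbook role, 14 ligands and 8 receptors were counted as homeostatic, 23 ligands and 11 receptors as inflammatory, and 4 receptors as atypical.

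Chemokines are small secreted proteins that guide leukocytes along gradients, and they act through G protein-coupled receptors on the moving cell. Homeostatic members place lymphocytes in the follicles, T cell zones and marginal zone of organs such as the spleen, whereas inflammatory members are switched on by infection or injury. Atypical receptors bind chemokines without G protein signalling and remove or buffer them.

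The spleens came from C57BL/6J mice of both sexes, 8 weeks old, and every group shared fixation in formalin for 16 h and embedding in paraffin (FFPE). Nuclei were tagmented with Tn5, a transposase that inserts adapters where DNA is open. By the study's methods the tagmented material was later divided between the conditions. DNA was then recovered with reverse crosslinking (+RV), which frees DNA from fixed protein, or without it (−RV). Of 8 samples, 4 were bulk libraries and 4 were single-cell libraries, each kind with 2 technical replicates per condition, so the spread between replicates is technical. The single-cell fragments of each condition were deposited as 1 pooled set. By the names of both sets, barcodes had been selected on unique fragments and on FRiT. In the study's methods FRiT is the share of a barcode's reads that lie around start sites.

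The +RV bulk peak lists held 47755 and 47864 peaks and the −RV lists 32288 and 32736, and the number of reads behind them is unknown here. Single-cell fragments numbered 14747920 in +RV (18620 barcodes) and 1727885 in −RV (2406 barcodes), with 2 barcodes common to the sets. Median fragments per barcode were 667 in +RV and 633 in −RV. The fewest were 500 in +RV and 501 in −RV, so barcode numbers and medians are those left after selection. Lists of spleen cell markers were looked up in bulk, where a gene was called when both libraries of a condition had a promoter peak. Over all genes, 53.6% were called in +RV and 47.7% in −RV. Of 16 B cell genes, 16 were called in +RV and 14 in −RV, and of 18 T cell genes 15 in +RV and 10 in −RV. Of 15 erythroid genes, 12 were called in +RV and 7 in −RV. Macrophage and monocyte genes, with 10 in +RV and 8 in −RV of 19, were not above the share over all genes. Plasma cell genes called numbered 6 in +RV and 5 in −RV of 8, dendritic cell genes 7 in +RV and 5 in −RV of 11, NK cell genes 4 in +RV and 3 in −RV of 10, and megakaryocyte genes 2 in +RV and 2 in −RV of 8. Endothelial genes numbered 6 in +RV and 1 in −RV of 11, stromal genes 3 in +RV and 0 in −RV of 14, and neutrophil genes 1 in +RV and 0 in −RV of 11. Of 11 pancreatic acinar genes, 0 were called in either condition.

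Promoter sequences are shown for the members on which the results below turn, taken from RefSeq (build GRCm38.p6). They run from 250 bases before to 50 after the start site, 5′ to 3′ on the strand of the gene, and capitals mark the matches to the motif named. Ackr1, the atypical receptor on red cells, lies at chr1:173333454-173333753 (minus strand), and its capitals are the GATA letters AGATAA read on the other strand, whose match begins at base 25 after the start. Cxcr4, the receptor that holds cells in bone marrow and lymphoid niches, lies at chr1:128592250-128592549 (minus strand), with 3 GC boxes (GGGCGG on the other strand).
Ackr1: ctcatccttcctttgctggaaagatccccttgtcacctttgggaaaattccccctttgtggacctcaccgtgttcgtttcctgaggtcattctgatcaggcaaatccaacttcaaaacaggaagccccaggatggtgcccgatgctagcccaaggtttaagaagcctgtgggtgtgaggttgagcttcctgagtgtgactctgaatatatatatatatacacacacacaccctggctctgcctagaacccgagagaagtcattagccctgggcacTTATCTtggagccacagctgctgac
Cxcr4: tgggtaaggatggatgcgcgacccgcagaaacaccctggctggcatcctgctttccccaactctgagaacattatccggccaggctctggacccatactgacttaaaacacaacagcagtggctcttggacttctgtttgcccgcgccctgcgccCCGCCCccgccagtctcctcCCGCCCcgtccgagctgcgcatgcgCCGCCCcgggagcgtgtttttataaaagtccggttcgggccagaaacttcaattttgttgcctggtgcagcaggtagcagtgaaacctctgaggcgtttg
Cxcl10, the interferon-induced ligand of Cxcr3, lies at chr5:92348840-92349139 (minus strand), with 1 interferon-stimulated response element (ISRE, a pair of GAAA runs with 2 bases of any kind between them) and 2 κB sites (GGG, 3 bases of any kind, then TTCC). Cxcl1, a neutrophil attractant, lies at chr5:90890995-90891294 (plus strand), with 3 κB matches, of which 2 overlap. Xcl1, which cytotoxic lymphocytes secrete to reach dendritic cells, lies at chr1:164935473-164935772 (minus strand), with 1 RUNX site (TGTGGT, on the other strand).
Cxcl10: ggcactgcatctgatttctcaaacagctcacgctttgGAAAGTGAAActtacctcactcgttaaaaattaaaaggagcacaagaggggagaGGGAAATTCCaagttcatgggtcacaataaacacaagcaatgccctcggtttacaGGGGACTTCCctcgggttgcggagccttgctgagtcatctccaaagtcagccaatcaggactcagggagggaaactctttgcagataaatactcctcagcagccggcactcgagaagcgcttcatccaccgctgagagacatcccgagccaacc
Cxcl1: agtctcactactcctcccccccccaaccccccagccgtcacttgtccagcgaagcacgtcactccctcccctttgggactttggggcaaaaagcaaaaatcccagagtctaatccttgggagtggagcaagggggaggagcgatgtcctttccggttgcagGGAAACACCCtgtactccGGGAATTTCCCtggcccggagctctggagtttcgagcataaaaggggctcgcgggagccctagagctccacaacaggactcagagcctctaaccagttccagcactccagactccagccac
Xcl1: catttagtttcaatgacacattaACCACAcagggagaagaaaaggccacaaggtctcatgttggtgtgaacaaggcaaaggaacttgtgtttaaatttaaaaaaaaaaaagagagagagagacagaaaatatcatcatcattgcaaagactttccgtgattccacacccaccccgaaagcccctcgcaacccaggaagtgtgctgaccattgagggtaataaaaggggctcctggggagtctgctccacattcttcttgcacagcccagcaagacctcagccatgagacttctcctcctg

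Both strands of these 300-base windows were searched for each motif, and 46 of the 60 members had a RefSeq promoter. The κB letters occurred in 9 of 46 (19.6%), against 6.64% of all 16515 promoters of that length. TATA letters (TATAAA) occurred in 15 (32.6%, against 14.3%), RUNX in 13 (28.3%, against 16.95%), GATA in 10 (21.7%, against 10.996%), AP-1 (TGANTCA) in 9 (19.6%, against 8.16%), ETS (GAGGAAG) in 8 (17.4%, against 15.2%) and ISRE in 3 (6.52%, against 4.02%). The GC box and the CRE had the opposite order, the GC box in 10 (21.7%) against 51.0%, and the CRE letters TGACGTCA in 0 of 46 against 2.64% of all promoters. These are matches of letters, counted without a test, and κB matches lay in Ccl1, Ccl9, Ccl20, Ccr3, Ccr6, Cxcl1, Cxcl2, Cxcl3 and Cxcl10.

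Most chemokine promoters carried no peak, and more of them carried one with reverse crosslinking than without. The promoter window took in 1000 bp before and 200 bp after each annotated start site, and a peak counted when it touched the window. By this measure 21 and 20 of 60 members had a promoter peak in the +RV libraries, against 12 and 11 in the −RV libraries. The means were 20.5 ± 0.707 in +RV and 11.5 ± 0.707 in −RV (SD, n = 2 each), a difference of 9 and a ratio of 1.78. The libraries of the conditions did not overlap, but 2 against 2 libraries cannot go below the p found here (exact two-sided permutation test, p = 0.33). Over all genes, the +RV libraries had a promoter peak at 55.0% and 55.0% of genes and the −RV libraries at 49.2% and 49.1%.

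Gene bodies gave the same order. A body peak was present at 32 and 32 members in +RV, against 17 and 15 in −RV (means 32 and 16, exact permutation p = 0.33), and peak summits inside promoters or bodies of members numbered 71 and 75 in +RV, against 49 and 47 in −RV (means 73 and 48, exact permutation p = 0.33). The number of peaks in the lists moved with these counts: summits in member loci made up 0.149% and 0.157% of all +RV summits and 0.152% and 0.144% of all −RV summits. When every library was held to its 32288 best-ranked peaks, members with a promoter peak numbered 16 and 17 in +RV against 12 and 11 in −RV, members with a body peak 22 and 24 against 17 and 15, and summits 52 and 54 against 49 and 47. The differences were then 5, 7 and 5. In bulk, few cells of a type and little open DNA per cell cannot be told apart behind a missing peak.

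A promoter was called in a condition when both of its libraries had a peak there. Of the members, 16 were called in +RV (26.7%, against 53.6% of all genes) and 10 in −RV (16.7%, against 47.7%). Called in +RV alone were 4 of the 60 members (6.67%, against 3.48% of all genes), namely Ccl6, Ccr9, Cxcl16 and Xcl1, and 0 were called in −RV alone (background 0.0137%). The count of 4 depends on single libraries: it was 7 without +RV replicate 1, 9 without +RV replicate 2, and 2 when the summit itself had to lie in the window, since the summits at Ccr9 and a summit at Cxcl16 lie past it. Gene bodies were called at 28 members in +RV (background 60.8%) and 14 in −RV (background 53.9%). Promoters without a peak in any library numbered 35, and 24 members had no peak in promoter or body.

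**Figure D1:**
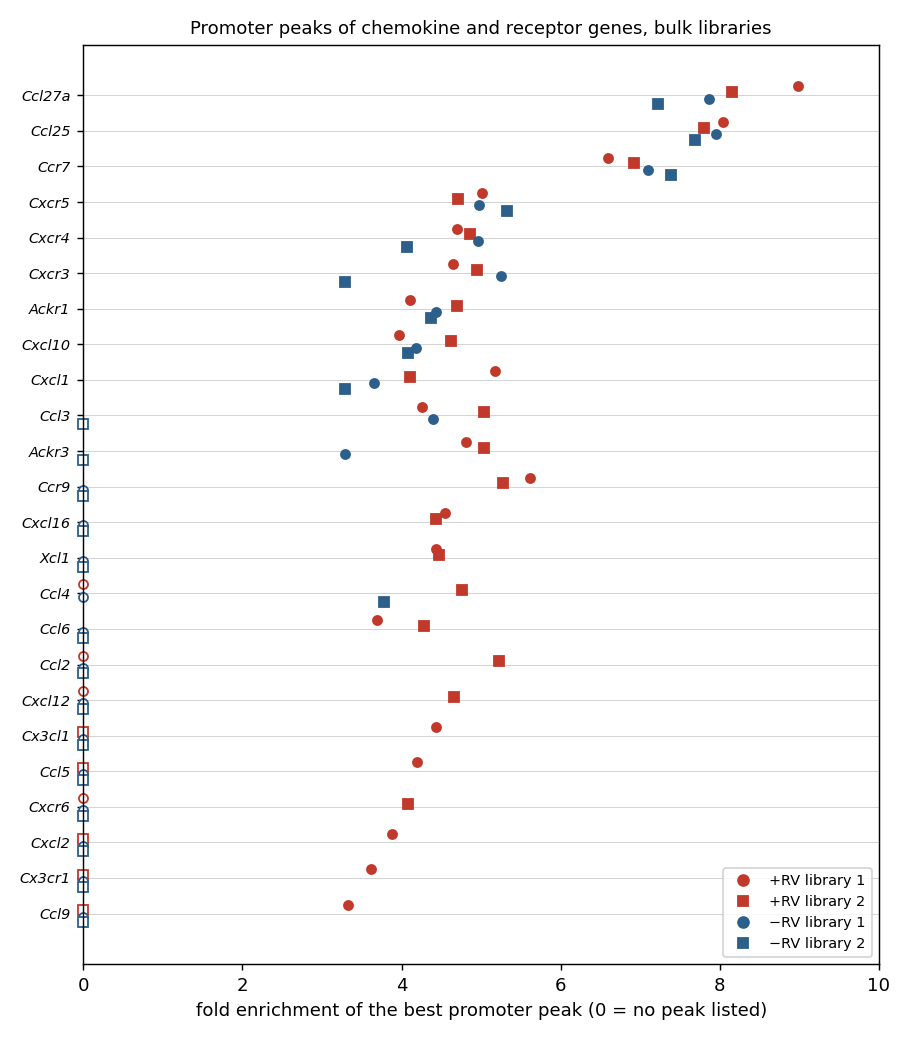
Fold enrichment (horizontal axis, as the deposited lists give it) of the best promoter peak of 24 of the 25 members with a peak in at least 1 bulk library. Red marks are +RV and blue marks −RV libraries, circles are library 1 and squares library 2, and open marks at 0 mean that no peak was listed. Ccl27a, Ccl25 and Ccr7 lie above 6 in all 4 libraries, and most other members lie near 4 with −RV marks at 0 in the lower part.

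Of the 8 homeostatic receptors, 4 promoters were called in +RV and 3 in −RV. Ccr7, which brings T cells and dendritic cells into the T cell zone, had the highest promoter folds of any receptor, 6.60 and 6.92 in +RV and 7.10 and 7.38 in −RV. Fold here is the pile-up at the peak summit over the local background of its own library. The −RV folds of Ccr7 lay above both +RV folds, the only such case among the 10 member promoters with a peak in all 4 libraries, against 12.2% of all such promoters. Cxcr5, the follicle-homing receptor of B cells and follicular helper T cells, had 5.01 and 4.72 in +RV and 4.97 and 5.32 in −RV. Cxcr4 had 4.70 and 4.85 in +RV and 4.97 and 4.07 in −RV. The conditions overlapped at both genes. Ccr9, the gut and thymus homing receptor whose window is shared with Slc6a20a, had 5.61 and 5.28 in the +RV libraries and no −RV peak, with summits 622 and 536 bp past the nearest start site.

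The other 4 homeostatic receptors had peaks in the gene body alone. Ccr6, the receptor for Ccl20 on B cells, had 3 body peaks in each of the 4 libraries, and the best had folds of 6.35 and 4.64 in +RV and 4.40 and 4.55 in −RV, above both −RV values by a small margin in +RV replicate 2. It lay 10710 and 10709 bp from the nearest start site in +RV, and 10707 and 10676 bp in −RV, in an exon that the annotation gives as 5′ untranslated. Ccr10, a skin-homing receptor also found on plasma cells, had a body peak of 4.17 and 4.04 in +RV and of 3.24 in −RV replicate 1 only. Its promoter window and gene body are shared with Cntnap1. Ccr4 had a body peak of 3.92 in +RV replicate 2 alone and Ccr8 of 3.52 in +RV replicate 1 alone, and both are receptors of activated and regulatory T cells.

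Among the 11 inflammatory receptors, 2 promoters were called in both conditions. Cxcr3, which is carried by effector T cells and NK cells and was among them, had folds of 4.65 and 4.95 in +RV and 5.25 and 3.28 in −RV. The spread between the −RV libraries exceeded the difference between conditions. Cxcr6, a receptor of resident T and NKT cells whose body overlaps Fyco1, had a promoter peak of 4.08 in +RV replicate 2 alone. Cx3cr1, the fractalkine receptor of monocytes, had a promoter peak of 3.62 in +RV replicate 1 alone but 15 and 13 body peaks in +RV and 12 and 11 in −RV. Its annotated gene spans 168264 bp and holds Csrnp1, Gorasp1, Ttc21a, Wdr48 and Xirp1, so its body peaks cannot be assigned to Cx3cr1. Ccr2, which takes monocytes out of the marrow, had best body peaks at different places in the +RV libraries. They had 3.13 in replicate 1 and 3.62 in replicate 2, at 1271 and 7119 bp from the nearest start site. In −RV, replicate 1 alone had a Ccr2 body peak, of 2.91 at 1608 bp. No peak was listed at Ccr1, Ccr1l1, Ccr3, Cxcr1, Cxcr2 or Xcr1, receptors of myeloid cells and of cross-presenting dendritic cells.

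Of the 4 atypical receptors, 2 promoters were called in +RV and 1 in −RV. Ackr1 had folds of 4.10 and 4.70 in +RV and 4.43 and 4.37 in −RV, and its window held 2 peaks in every library, while its gene body overlaps Cadm3. The best summit lay at −12 bp, inside the sequence printed above, in +RV replicate 1, at −402 bp in +RV replicate 2, and at −427 and −442 bp in −RV. Ackr3, a scavenger of Cxcl12, had 4.81 and 5.03 in +RV, against 3.29 and no peak in −RV. Ackr2, a scavenger of inflammatory CC chemokines, had no promoter peak but a body peak in the 3′ untranslated region with 6.12 and 5.51 in +RV and 7.14 and 6.20 in −RV. It lay 11486 and 11381 bp from the nearest start site in +RV and 11471 and 11535 bp in −RV. Ackr4, a scavenger of Ccl19, Ccl21 and Ccl25, had a body peak of 3.88 and 4.29 in +RV and none in −RV. The Ackr4 body overlaps Acad11.

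Homeostatic ligands had 2 called promoters of 14, the same 2 genes in both conditions. Ccl27a, the skin ligand of Ccr10, had the highest promoter folds of the family in +RV, with 8.98 and 8.16 there and 7.87 and 7.22 in −RV. Its gene body overlaps Il11ra1. Ccl25, the ligand of Ccr9, had 8.04 and 7.80 in +RV and 7.95 and 7.69 in −RV, but its window is shared with Elavl1, the gene of an RNA-binding protein. Cxcl12, the niche ligand of Cxcr4, had a peak of 4.66 in +RV replicate 2 alone. Cxcl17, a mucosal ligand, had a body peak of 4.25 and 4.85 in +RV and none in −RV. Ccl17, Ccl19, Ccl21a, Ccl21b, Ccl22, Ccl27b, Cxcl13, Cxcl14 and Cxcl15 had no peak.

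Ccl28, a mucosal ligand of Ccr10, had no promoter peak but the highest body folds of the family in +RV, with 9.46 and 12 there and 8.39 and 7.66 in −RV. Both +RV values lay above both −RV values. The peak sits in an intron, 8070 and 8097 bp from the start site in +RV and 8185 and 8165 bp in −RV. The 121 bases around its summit in +RV replicate 1 (mm10, chr13:119631829-119631949, plus strand) are shown because they hold the CRE letters TGACGTCA, in capitals, which read the same on both strands and occurred in 0.738% of 47695 summit windows of that length and library.
Ccl28: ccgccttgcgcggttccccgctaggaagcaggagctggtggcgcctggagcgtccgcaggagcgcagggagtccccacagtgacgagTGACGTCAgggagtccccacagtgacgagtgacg

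Inflammatory ligands had 6 called promoters of 23 in +RV and 2 in −RV. Cxcl10, whose body overlaps Art3, had 3.97 and 4.62 in +RV and 4.18 and 4.08 in −RV, and the conditions overlapped. Cxcl1 had 5.18 and 4.10 in +RV and 3.66 and 3.28 in −RV, with both +RV values above both −RV values. Of its summits, only that of −RV replicate 2 lay inside the sequence printed above. With Ccl27a, Cxcl1 made up the 2 of 10 promoters called in all libraries whose +RV folds lay wholly above, against 50.2% of all 10402 promoters with a peak in every library. The mean fold was higher in +RV for 8 of these 10 promoters, against 74.2%, and each fold is set by its own library's background.

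The remaining 4 promoters called in +RV belonged to myeloid and cytotoxic cell chemokines and to Cxcl16. Ccl3, a macrophage and T cell product that binds Ccr1, had 4.25 and 5.03 in +RV, against 4.39 and no peak in −RV. Ccl6, a myeloid chemokine, had 3.70 and 4.29 in +RV, Cxcl16, the ligand of Cxcr6, 4.55 and 4.43, and Xcl1 4.44 and 4.47, all 3 without a −RV peak. The Cxcl16 window is shared with Zmynd15. The Xcl1 promoter summits, at −432 and −329 bp, lay outside the sequence printed above. Xcl1 also had a body peak of 3.70 and 3.92 in +RV.

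Another 6 inflammatory ligands had a promoter peak without a call. Ccl4, close kin of Ccl3, had 4.75 in +RV replicate 2 and 3.77 in −RV replicate 2. In +RV alone, Ccl2, the monocyte ligand of Ccr2, had 5.22 in replicate 2, and its body overlaps Gm17268. Also in +RV alone, Ccl5 had 4.20, Ccl9 3.33, Cx3cl1 4.44 and Cxcl2 3.88 in replicate 1. Ccl5 draws T cells and monocytes, Ccl9 is a myeloid chemokine, Cx3cl1 is the membrane-bound ligand of Cx3cr1 and Cxcl2 attracts neutrophils. In the Ccl4 body, +RV replicate 1 had a peak of 3.23 at 1097 bp past the start site. In +RV replicate 2 the Ccl4 promoter peak of 4.75 reached the gene start, and no separate body peak was listed. Cx3cl1 also had body peaks in both +RV libraries, of 4.41 and 4.07 at 6562 and 6564 bp from the nearest start site. Further along, at 7194 and 7283 bp, Cx3cl1 had 4.86 and 3.42. Cxcl9, another ligand of Cxcr3, had a body peak of 4.46 and 3.92 in +RV alone, in its 3′ untranslated region. Ccl1, the ligand of Ccr8, had a body peak of 3.88 and 5.78 in +RV, which overlapped a peak of 3.78 in −RV replicate 2. Another body peak, elsewhere in its annotated gene of 129034 bp, had 4.44 and 3.54 in +RV and was not listed in −RV. No peak was listed at Ccl7, Ccl8, Ccl11, Ccl12, Ccl20, Ccl24, Ccl26, Cxcl3 or Cxcl5.

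The promoter peaks of members lay close to their start sites. Of 64 best promoter peaks over the 4 libraries, 46 had their summit within 150 bp of a start site and 46 had it upstream, with a median distance of 86 bp. They were of middling rank in their libraries. In +RV, 5 of 21 and 5 of 20 members with a promoter peak reached the best 25% of peaks, and in −RV 4 of 12 and 3 of 11.

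**Figure D2:**
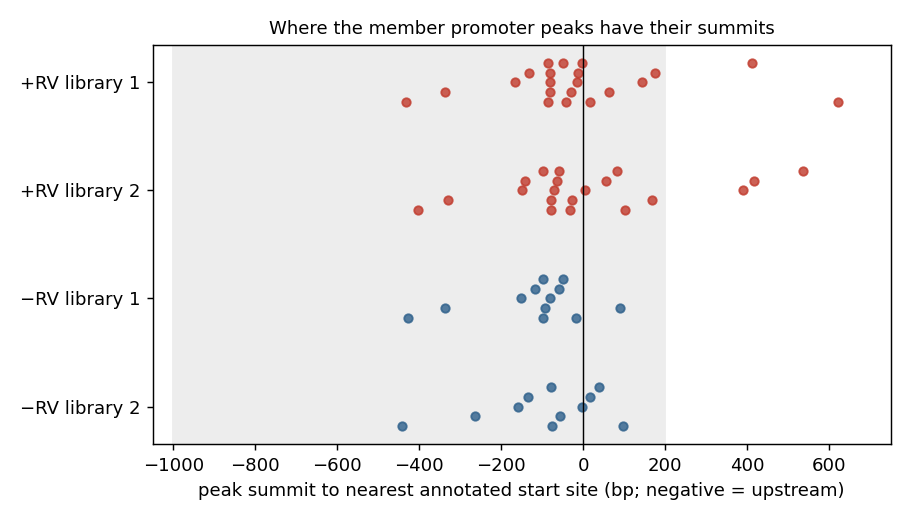
Distance in bp from the nearest annotated start site to the summit of the best promoter peak of each member (horizontal axis, negative is upstream), with a line of points for each bulk library, +RV in red above −RV in blue. The grey band is the promoter window, and most points lie just left of 0, while the +RV libraries hold 5 points right of the band and the −RV libraries 0.

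Chemokine promoters were poor in CpG. By a limit of 0.6 on the observed over expected CpG ratio and 50% GC, 4 of 60 members were CpG-rich (6.67%), namely Ccl25, Cxcl12, Cxcl14 and Cxcr4, against 33.7% of all genes, and the median ratio was 0.208 in members and 0.507 over all genes. Among CpG-poor promoters the members called were 14 of 56 (25%) in +RV, against 37.6% of all CpG-poor promoters, and 8 of 56 (14.3%) in −RV, against 31.9%. Among CpG-rich promoters 2 of 4 members were called in each condition, against 85.2% of all such promoters in +RV and 78.9% in −RV. The members' share stood nearer to the background within the CpG-poor class than over all genes.

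Many members sit in gene clusters, and the peak summits in these spans were uneven. Summits were counted from the first to the last member of a span, including those outside member genes or in other genes. The cluster of Ccl5, Ccl9, Ccl6, Ccl3 and Ccl4 on chromosome 11 (138.9 kb) held 16 and 13 peak summits in +RV, against 5 and 8 in −RV. The receptor cluster on chromosome 9 that begins with Ccr9 (469.3 kb, 8 members) held 27 and 34 in +RV, against 19 and 22 in −RV. By contrast, the cluster of Ccl2, Ccl7, Ccl11, Ccl12, Ccl8 and Ccl1 (270.1 kb) held 2 and 2 in +RV and 0 and 1 in −RV. The genome averaged 17.5 and 17.6 summits per Mb in +RV and 11.86 and 12.02 in −RV. The cluster of Cxcl5, Cxcl3, Cxcl15, Cxcl1 and Cxcl2 on chromosome 5 held 5 and 3 in +RV and 3 and 1 in −RV, and that of Ccl22, Cx3cl1 and Ccl17 on chromosome 8 held 4 and 3 in +RV and 1 and 1 in −RV.

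The cluster on chromosome 4 could be read at Ccl27a only. Ccl19 and Ccl21a, which guide T cells and dendritic cells through Ccr7, and the further genes Ccl21b and Ccl27b, had 0 promoter or body fragments in both single-cell sets and no bulk peak. A count of 0 allows up to 0.219 CPM in +RV and 1.88 in −RV (3 counts). Their promoter windows are covered over 100% of their length by a second copy elsewhere in the genome, with an identity of 98.97% for Ccl19, 99.25% for Ccl21a and 100% for Ccl21b and Ccl27b. The 518.2 kb from Ccl21b to Ccl21a held 2 +RV and 0 −RV fragments in all, and 560.8 kb around Ccl27b, Ccl19 and Ccl21a held 0 from either set. For Ccl27a 67.7% of the window has a second copy. The study's methods set a minimum read length with the aim of keeping fragments that map to a single place, and no level of these genes can be read from the files.

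In the single-cell sets, the summed promoter level of members gave a ratio near 1 between conditions. Barcodes of both sets had been selected on their share of reads around start sites, so promoter levels hold for the barcodes kept. Members' promoters held 1915 of the +RV fragments (140 CPM, scaled to the nuclear fragments of the set, interval 134 to 146) and 213 of the −RV fragments (134 CPM, 116 to 153), a ratio of 1.04 (0.906 to 1.21), against 1.13 over all genes. Gene bodies held 9047 in +RV (660 CPM, 647 to 674) and 1015 in −RV (637 CPM, 599 to 678), a ratio of 1.04 (0.971 to 1.11), against 1.01 over all genes. Of these body fragments, Cx3cr1 gave 2215 in +RV and 217 in −RV and Ccr9 1124 in +RV and 165 in −RV. Both bodies hold other genes, so the sum is not that of the family alone. Each condition is 1 sample here, so nothing was tested, and these 95% Poisson and binomial intervals cover counting error only. On the log2(CPM + 1) scale the median ratio of member promoters was 0.01, against 0.16 over all genes, and that of bodies 0.01, against 0.04. The promoter median turned to −0.13 over the 36 members with a mean of at least 1 CPM and stood at 0.32 in barcodes of at least 1000 fragments. At 1.5-fold on that scale, 11 promoters were higher in +RV (background 16.7%) and 6 lower (background 6.4%), and 8 bodies were higher (background 9.61%) and 3 lower (background 5%). Of the 60 promoters, 42 had at least 10 fragments in +RV and 6 in −RV, so most single −RV levels rest on few fragments.

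The highest promoter levels belonged largely to genes with bulk peaks in all 4 libraries, 8 of the highest 10. Ccl25, whose window Elavl1 shares, had 19.0 CPM in +RV and 15.1 in −RV, and Cxcr4 had 15.3 in +RV and 12.6 in −RV. Cxcr5 had 10.7 in +RV and 7.54 in −RV, Ackr1 10.4 in +RV and 11.3 in −RV, and Ccr7 7.74 in +RV and 4.40 in −RV. Cxcr4, Cxcr5 and Ccr7 place B and T cells within lymphoid organs. Next came Cxcl10 with 5.98 in +RV and 6.28 in −RV, Ccr6 with 5.69 in +RV and 6.28 in −RV, and Ccl27a with 4.52 in +RV and 5.65 in −RV. Ccr9 had 3.65 in +RV and 5.02 in −RV. The highest 10 genes together held 61.7% of the members' promoter fragments in +RV and 57.3% in −RV. Window lengths differ with the number of start sites, and per kb the order in +RV was Cxcr4 (12.7 CPM per kb in +RV, 10.5 in −RV), Ccl25 (7.90 in +RV, 6.27 in −RV), Ackr1 (7.61 in +RV, 8.24 in −RV), Ccr7 (6.44 in +RV, 3.66 in −RV), Cxcl10 (4.95 in +RV, 5.20 in −RV) and Cxcr5 (2.98 in +RV, 2.09 in −RV). In +RV, Cxcr4 stood apart from Ccl25, and Cxcl10 from Cxcr5, by intervals that do not overlap, while the neighbours from Ccl25 to Cxcl10 overlap. The order in −RV was another: Ackr1 stood above Ccl25, and Cxcl10, Cxcr6 (4.10 CPM per kb) and Ackr2 (4.05) above Ccr7.

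**Figure D3:**
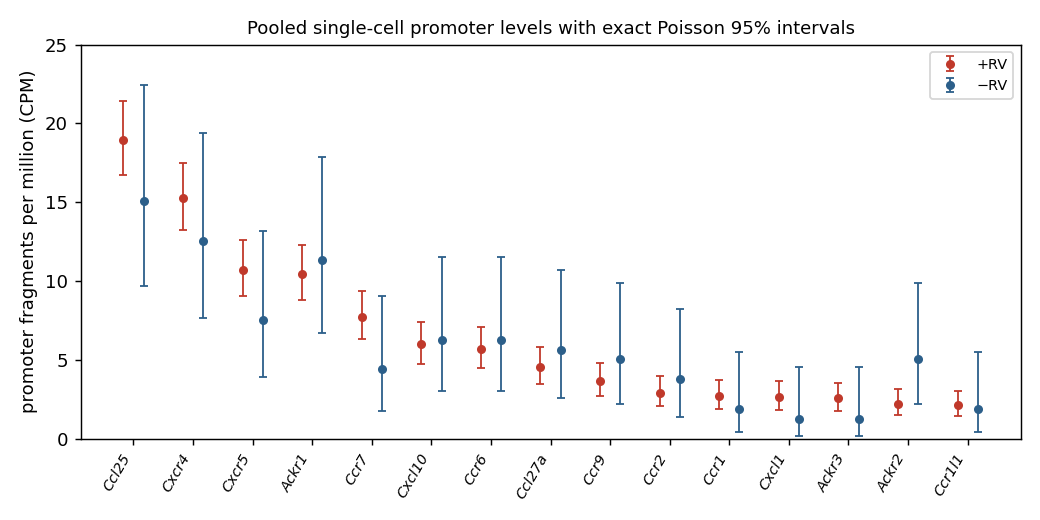
Promoter level in CPM (vertical axis) of 15 of the 16 members with most +RV promoter fragments, +RV in red left of −RV in blue, with exact Poisson 95% intervals of the pooled sets. The −RV intervals are wider and overlap the +RV intervals at each of the 15 genes.

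Single members were also set side by side. Of 44 promoters with fragments in both sets, the interval of the ratio left out 1 at Cxcr6 only (background 7.1% of all promoters with −RV fragments), with 18 fragments in +RV (1.31 CPM) and 8 in −RV (5.02 CPM), which gives 0.26 (0.11 to 0.69). Of 52 gene bodies it did so at 4 (background 9.18%). Ackr2 had 16.9 CPM in +RV and 9.42 in −RV (ratio 1.79, 1.06 to 3.25), and its log2 ratio of 0.78 with the pseudocount became 2.34 in barcodes of at least 1000 fragments. Cxcr5, whose body overlaps Bcl9l, had 76.5 in +RV and 61.5 in −RV (ratio 1.24, 1.01 to 1.54). Further genes also lie in the Cx3cr1 and Ccr9 bodies. Cx3cr1 had 162 in +RV and 136 in −RV (ratio 1.19, 1.03 to 1.37). Ccr9, whose body overlaps Lztfl1 and Slc6a20a, had 82.0 in +RV and 104 in −RV (ratio 0.79, 0.67 to 0.94). No interval was adjusted for the number of ratios, and variation between libraries is not in them. The Cxcr6 order was the reverse of its bulk promoter peak, which was listed in +RV replicate 2 alone. Barcode classes also had different shares in the sets, as given next.

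Barcodes were grouped on 5000-bp bins that do not touch any member, and the clusters fell into 7 classes named from marker lists. B cell-like barcodes made up 28.5% in +RV and 24.1% in −RV, erythroid-like 18.8% in +RV and 26.1% in −RV, and T cell-like 17.9% in +RV and 15.0% in −RV. Macrophage and monocyte-like barcodes made up 13.5% in +RV and 9.98% in −RV, stromal-like 10.3% in +RV and 7.81% in −RV, endothelial-like 7.82% in +RV and 9.39% in −RV, and pancreatic acinar-like 3.27% in +RV and 7.69% in −RV. NK cell markers were 3.60 times as high in the T cell-like barcodes as in the rest and neutrophil markers 2.36 times as high in the macrophage and monocyte-like ones, and plasma cell markers 2.05 and 1.70 times as high in the B cell-like clusters, so each class can hold more than its name says. Without the 5% deepest barcodes a plasma cell-like class appeared. Member levels by class are counts in a gene window from 5000 bp upstream to 500 bp past the end. They are described without a test.

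Summed over members, the gene-window level in +RV was 1067 CPM in T cell-like, 1061 in B cell-like, 994 in macrophage and monocyte-like, 900.1 in erythroid-like, 810 in endothelial-like, 801 in stromal-like and 656 in pancreatic acinar-like barcodes. The Cx3cr1 window, which holds other genes, gave 228 of the 656 CPM in pancreatic acinar-like barcodes, 126 of 362 fragments. Of the 50 members with at least 30 fragments in +RV, 12 were highest in T cell-like, 11 in erythroid-like, 9 in stromal-like, 7 in macrophage and monocyte-like, 5 in endothelial-like, 3 in B cell-like and 3 in pancreatic acinar-like barcodes. Highest classes were not counted over all genes, so whether these counts differ from those of other genes cannot be told. Since the class was picked as the highest, part of its lead over the rest is built in. The intervals of the highest and the second class were apart at 10 of the 50 (background 17.8%). These were Ackr1, Ackr3, Ccl1, Ccl6, Ccr6, Cxcl10, Cxcl12, Cxcl5, Cxcr6 and Xcl1. The highest class was the same in −RV for 29 of the 50, a share that was not counted over all genes. The 10 members below 30 fragments were Ccl7, Ccl8, Ccl11, Ccl12, Ccl19, Ccl20, Ccl21a, Ccl21b, Ccl27b and Cxcl14.

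**Figure D4:**
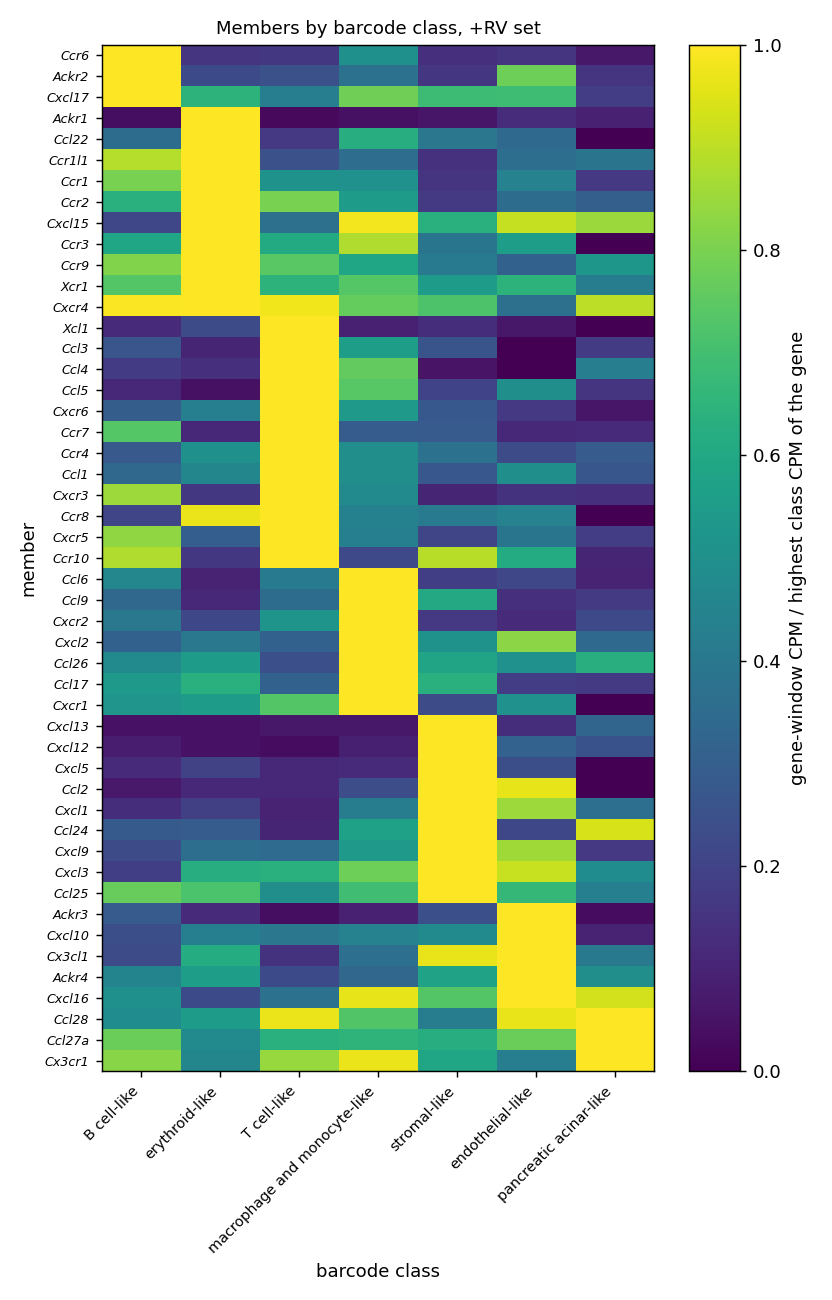
Gene-window level of 49 of the 50 members with at least 30 +RV fragments (vertical axis) in 7 barcode classes (horizontal axis), as CPM divided by the highest class CPM of that gene, from 0 (dark) to 1 (yellow). Yellow blocks show 12 members highest in T cell-like and 9 in stromal-like barcodes, and Cxcr4 is near 1 in several classes. The same counts over all genes were not made.

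Several receptors were highest in lymphocyte classes. Ccr6 stood at 83.5 CPM in B cell-like barcodes in +RV (74.4 to 93.4) and 81.5 in −RV (54.6 to 117), with macrophage and monocyte-like barcodes next at 42.0 in +RV and at 17.9 in −RV. Ccr7 had 61.2 CPM in +RV and 79.2 in −RV in T cell-like barcodes, and 45.03 in +RV and 39.4 in −RV in B cell-like ones. The B cell-like clusters differed at Ccr7 in +RV, with 29.4 CPM in the one with plasma cell markers at 2.05 times the rest and 68.1 in the other. Cxcr5, whose window also overlaps Bcl9l, was high in both lymphocyte classes. It had 161 CPM in +RV and 121 in −RV in T cell-like barcodes and 134 in +RV and 112 in −RV in B cell-like ones. Cxcr6 was highest in T cell-like barcodes (29.7 CPM in +RV, 32.6 in −RV). Cxcr4 had 42.3, 42.0 and 41.4 CPM in erythroid-like, B cell-like and T cell-like barcodes in +RV, and its lowest level was 15.6 in endothelial-like ones.

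Ackr1 had the highest ratio of any member between a class and all other barcodes, 20.1 (14.4 to 28.7). It had 77.5 CPM in erythroid-like barcodes in +RV (67.6 to 88.5) and 54.0 in −RV (34.6 to 80.4), and the next class, endothelial-like, had 9.75 in +RV and 0 fragments in −RV (interval up to 25.6 CPM). Its erythroid-like clusters had 119 and 53.0 CPM in +RV. Ackr3 had 52.6 CPM in endothelial-like barcodes in +RV (39.5 to 68.7) and 55.5 in −RV (24.0 to 109), with 15.1 in +RV and 11.3 in −RV in B cell-like barcodes. Ackr2 had 47.5 CPM in B cell-like barcodes in +RV and 42.2 in −RV, close to 37.0 in endothelial-like barcodes in +RV.

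Ligands differed in the class of their highest level. Cxcl12 had 43.3 CPM in stromal-like barcodes in +RV (33.3 to 55.3) and 38.6 in −RV (12.6 to 90.2), and Cxcl13, which forms B cell follicles, had 22.3 in +RV and 0 fragments in −RV (interval up to 28.5 CPM). Cxcl5, a neutrophil attractant, had 16.2 CPM there in +RV and 15.5 in −RV, and Cxcl1 14.9 in +RV and 15.5 in −RV, the −RV levels resting on 2 fragments each. Cxcl12 and Cxcl13 are made by the stromal cells of lymphoid organs, where they set out B cell niches. Cxcl10 had 38.0 CPM in +RV and 27.8 in −RV in endothelial-like barcodes, the highest class in +RV, while macrophage and monocyte-like barcodes had 16.9 in +RV and 29.8 in −RV, where these levels rest on 4 and 5 fragments. Xcl1 had 15.5 CPM in T cell-like barcodes in +RV (10.7 to 21.8) and 18.6 in −RV (5.07 to 47.7), and the next class had 3.56 in +RV. Ccl5 had 23.5 CPM in +RV and 27.9 in −RV in T cell-like barcodes, and 17.4 in +RV and 35.7 in −RV in macrophage and monocyte-like ones. Ccl6 had 18.4 CPM in macrophage and monocyte-like barcodes in +RV and 11.9 in −RV, where its window held 9 fragments over all classes. Ccl22, a ligand of Ccr4, was highest in erythroid-like barcodes, with 8.53 CPM in +RV and 11.3 in −RV, as was Cxcl15 in +RV. Cxcl17 was highest in B cell-like barcodes in +RV, and Ccl27a and Ccl28 in pancreatic acinar-like ones, all 3 with intervals that overlap those of the next class.

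**Figure D5:**
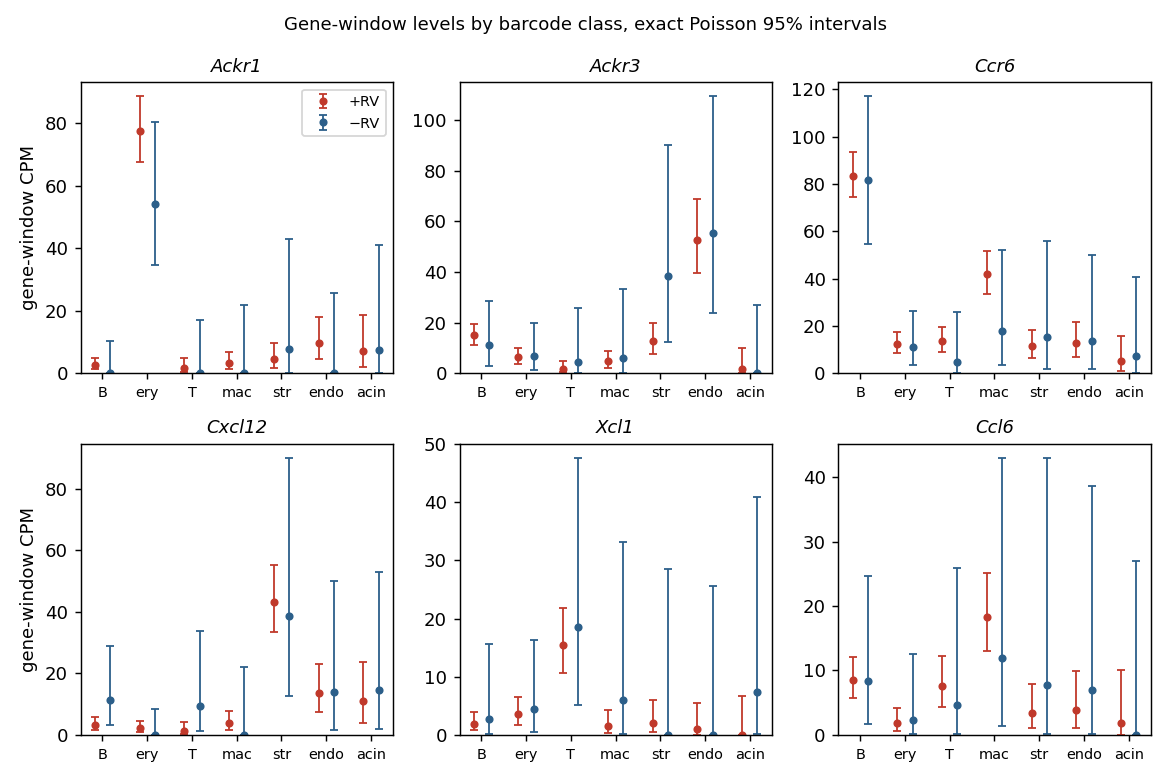
Gene-window CPM (vertical axes) of Ackr1, Ackr3, Ccr6, Cxcl12, Xcl1 and Ccl6 in the 7 barcode classes (B, erythroid, T, macrophage and monocyte, stromal, endothelial and acinar), +RV in red left of −RV in blue, with exact Poisson 95% intervals. In each panel the class with the highest level is the same in both sets: erythroid-like for Ackr1 (77.5 and 54.0 CPM) and endothelial-like for Ackr3 (52.6 and 55.5 CPM). These genes were picked. Of the 50 members counted, 29 had the same highest class in both sets, and Cxcl10 did not. In −RV the Ccl6 and Xcl1 windows held 9 fragments each over all classes.

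In the chromosome 9 cluster, Ccr1, Ccr1l1, Ccr2, Ccr3, Ccr9 and Xcr1 were highest in erythroid-like barcodes in +RV. Ccr2 had 35.9 CPM there in +RV and 47.3 in −RV, and Ccr9 119 in +RV and 164 in −RV. Ccr1 had 22.05 in +RV and 27.0 in −RV, Ccr3 19.2 in +RV and 36.0 in −RV, and Ccr1l1 18.8 in +RV and 22.5 in −RV. Xcr1 had 60.5 in +RV and 33.8 in −RV, where macrophage and monocyte-like barcodes were higher, at 89.3. These +RV levels were at most 2.05 times those of all other barcodes, with intervals that overlap those of the next class. Without the 5% deepest barcodes Ccr1l1 and Ccr9 were highest in another class. The erythroid-like clusters also differed in +RV. In the one with erythroid markers at 5.04 times the rest, Ccr1l1 had 8.66 CPM and Ccr2 25.01. B cell-like barcodes had 16.75 at Ccr1l1 and T cell-like ones 28.73 at Ccr2. In that cluster Ccr1, Ccr3, Ccr9 and Xcr1 stayed above every other class. In the other cluster Ccr1l1 had 24.83 and Ccr2 42.32. The Xcr1 window held 609 fragments in +RV and its body 147. Cxcr2, the neutrophil receptor, was highest in macrophage and monocyte-like barcodes, at 8.21 CPM and 3.19 times the rest.

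Other genes of the pathway were mostly called. Of 69 listed genes, 65 promoters were called in +RV (94.2%, against 53.6% of all genes) and 57 in −RV (82.6%, against 47.7%). CpG-rich promoters numbered 28 of the 69. Called in +RV alone were 2 of the 69, where 3.48% of all genes were. These were Rgs16, with folds of 5.11 and 5.47, and Rgs10, with 4.71 and 4.26, which end G protein signalling. All 12 genes of G proteins and PI3K were called in both conditions, with Gnai3 at 8.52 and 8.65 in +RV and 7.50 and 8.13 in −RV. Receptor kinases, arrestins and RGS genes were called at 15 in +RV and 10 in −RV of 15, and Rgs1 had 8.33 and 7.88 in +RV and 6.27 and 5.76 in −RV. Migration genes were called at 20 in +RV and 19 in −RV of 20, with Rhoa at 9.66 and 8.86 in +RV and 9.91 and 9.39 in −RV, and all 12 NF-κB regulators were called in both conditions, with Ltbr, the lymphotoxin receptor, at 8.05 and 10.36 in +RV and 4.94 and 4.76 in −RV. Other guidance receptors and platelet CXC chemokines were nearest to the family, with 6 in +RV and 4 in −RV of 10, and S1pr2, which confines B cells to germinal centres, had 4.95 and 5.46 in +RV and 4.15 and 4.78 in −RV. C5ar1, Fpr1, Cmklr1 and Ppbp had no promoter call.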

How the data were processed

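Groups came from the sample titles, and the condition of each pooled single-cell set from its abbreviation. The authors deposited a peak list per bulk library in MACS2 layout on mm10, with positions (other values), a score, a fold over local background (ratio) and −log10 p and q values, used here to rank and filter. For single cells the authors deposited positions and barcodes of fragments (other values). Tools in the submitters' processing notes were SEACR 1.3, Picard 1.119, SAMtools 1.15 and Bowtie2 2.4, with roles not given in the sources used here. Genes were from GENCODE vM21 (41406 start sites). Fragments were counted by midpoint and scaled to nuclear fragments, 13703580 in +RV and 1592372 in −RV. A latent semantic index (20 components) of 66666 bins, 20 neighbours and Leiden resolution 1 gave clusters, no doublet caller was run, and the naming rule was set with the data known. Software was Python 3.11.15, numpy 2.4.6, scipy 1.17.1, scikit-learn 1.9.0, leidenalg 0.10.2 and BLAST+ 2.17.0 (copies of at least 95% identity). Scripts that count across genes were tested on simulated data. Members, lists, tests and alternatives were chosen with earlier results of these data known. Values are given for members with a promoter peak in any library or a body peak in both libraries of a condition, for the 10 highest promoter CPM and for ratio intervals that leave out 1, and for up to 3 genes of each pathway group. A member that this rule names is not reported here.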

Additional observations from a re-analysis of the deposited data

How the results depend on the processing

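Alternatives were peaks with −log10 q of at least 5, the same number of peaks per library, summits in place of overlap, windows of 500 bp, merging within 150 bp, each replicate left out, other pseudocounts, filters, fragment lengths and clusterings. In all of these that were run, the +RV minus −RV differences in members with a promoter peak (8.5 to 9.5 without a replicate), with a body peak (15 to 17) and in summits (23 to 27) stayed above 0. The replicate block gave 9, 16 and 25 with the smallest p that 2 pairs allow (exact sign-flip test, p = 0.5). The study's methods divide the tagmented sample between the conditions, so libraries may be paired. Deviations of replicate 1 correlated at r = 0.0063 over 12335 promoters. With absent peaks set to 0 in these folds, this value cannot show whether replicate numbers pair the libraries. Promoters called in +RV alone, 4 in all, numbered 2 with the summit in the window and 4 to 9 without a replicate. The median log2 ratio of promoters, 0.01, was −0.13 over the 36 members with a mean of at least 1 CPM (all genes 0.16) and 0.32 with barcodes of at least 1000 fragments, and that of the Ackr2 body was 2.34 with these barcodes. The causes were not tested. Leaving out summits in promoters of other genes, an alternative added after seeing the data, gave a difference of 23 summits. The highest class was the same for 50 of 50 members at Leiden resolution 0.5 and for 40 of 50 without the 5% deepest barcodes. The bulk design allows no p under 0.33, and 6 of 60 members had at least 10 promoter fragments in −RV.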
